A study of Homo sapiens with 15 samples.

Results

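The 10 tubulin genes examined here were the rows of the deposited read-count table whose gene names were TUBA1A, TUBA1B, TUBA1C, TUBB, TUBB2A, TUBB2B, TUBB3, TUBB4B, TUBB6 and TUBG1. They were 10 of 58676 genes in the table, and all 10 were among the 14461 genes with enough counts to be tested. RNA of the pancreatic cancer line PATU-8988T, a long-established human cell line, was sequenced in 15 libraries that formed 5 groups of 3. Control cells received 0.1% DMSO, the solvent. Treated cells received THZ1 at 100 nM for 4 h, THZ1 at 100 nM for 24 h, YKL-5-124 at 100 nM for 4 h or YKL-5-124 at 100 nM for 24 h. The series describes both compounds as inhibitors of CDK7, a kinase that phosphorylates RNA polymerase II and other cyclin-dependent kinases. All groups were 1 cell line, no time is labelled for the DMSO libraries, and both times were compared with these same 3 libraries. The labels do not say whether replicates were separate cultures. The p-values therefore measure only the spread among these libraries, which may be technical.

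Alpha- and beta-tubulin pair into dimers that polymerise into microtubules, which carry cargo, shape the cell and form the mitotic spindle. Humans have several genes for each, called isotypes. TUBA1A, TUBA1B and TUBA1C encode closely related alpha-tubulins, and TUBB, TUBB2A, TUBB2B, TUBB3, TUBB4B and TUBB6 encode beta-tubulins. TUBB is the common beta-tubulin of dividing cells, TUBB3 is best known from neurons, and TUBB6 is a divergent isotype found in many tissues. TUBG1 encodes gamma-tubulin, which does not enter the microtubule wall and instead nucleates it as part of the gamma-tubulin ring complex. Cells also adjust tubulin mRNA to the amount of free tubulin dimer. TTC5 recognises the first amino acids of a newly made alpha- or beta-tubulin on the ribosome and, through the CCR4-NOT deadenylase, has its mRNA degraded.

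The alpha genes lie together on chromosome 12 (GRCh38 as in the deposited table): TUBA1B at chr12:49127782-49131397 on the minus strand, TUBA1A at chr12:49184796-49189324 on the minus strand, and TUBA1C at chr12:49188736-49274603 on the plus strand. TUBA1A and TUBA1C overlap at their 5′ ends over 490 exonic bases on opposite strands. Among the beta genes, TUBB2A (chr6:3153669-3157526) and TUBB2B (chr6:3224261-3231730) are neighbours on the minus strand of chromosome 6. TUBB (chr6:30720201-30725426), TUBB3 (chr16:89921392-89938761), TUBB4B (chr9:137241213-137243707) and TUBB6 (chr18:12307669-12344320) are on plus strands, as is TUBG1 (chr17:42609676-42615234). TUBB6 shares 837 exonic bases with AFG3L2, TUBG1 139 with RETREG3, TUBB2B 174 with PSMG4 and TUBB4B 124 with FAM166A, each on the other strand. Use of strand in counting was not given in the sources used here, so reads of such partners cannot be told apart. TUBB3 shares 1584 exonic bases on its own strand with the annotated gene AC092143.1, which had 0 counts in these libraries. How reads lying in both genes were counted was not given either.

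The starts of the coding sequences are shown because they encode the residues read by autoregulation and because they let the members be grouped by sequence rather than by response. They were read from the GENCODE release 29 transcripts, 30 bases each, with the first 4 codons in capitals.
TUBA1B: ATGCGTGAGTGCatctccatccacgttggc
TUBB: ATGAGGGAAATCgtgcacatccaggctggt
TUBB4B: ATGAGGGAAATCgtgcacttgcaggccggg
TUBB6: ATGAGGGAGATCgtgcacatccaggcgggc
TUBB2A: ATGCGCGAGATCgtgcacatccaggcgggc
TUBB2B: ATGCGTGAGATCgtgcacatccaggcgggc
The TUBA1B run spans an intron (first and last base chr12:49129696-49131300, minus strand), and TUBA1A and TUBA1C have the same 30 bases. The others are at chr6:30720507-30720536 (TUBB, plus), chr9:137241361-137241390 (TUBB4B, plus), chr18:12308293-12308322 (TUBB6, plus), chr6:3157434-3157463 (TUBB2A, minus) and chr6:3227514-3227543 (TUBB2B, minus). TUBB and TUBB4B share their first 12 coding bases, TUBB3 shares its first 12 with TUBB6, and TUBB2A, TUBB2B and TUBG1 each have their own. Among the beta genes these bases differ only between codons for the same amino acid. The first 4 residues encoded by TUBB2A, TUBB2B and the other beta genes are therefore the same.

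Over the whole coding sequence TUBB2A and TUBB2B were identical at 98.2% of aligned positions (1311 of 1335), and the 3 alpha genes at 96.3% to 97.3%. TUBB6 was identical to the other beta genes at 81.3% to 88.6%. Sequence shared with other genes, by likeness or by overlap as for TUBB3, limits counting. Of the 100-base windows, 89.0% of TUBB3, 56.3% of TUBB2A, 46.2% of TUBB2B and 37.2% of TUBA1B occurred in transcripts of another gene. The shares were 18.3% for TUBA1A, 14.9% for TUBG1, 11.5% for TUBA1C, 5.09% for TUBB, 2.86% for TUBB4B and 0% for TUBB6. The handling of reads with several matches was not given in the sources used here either, so the levels of TUBB3, TUBB2A and TUBB2B are uncertain.

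Upstream sequence is shown for the near-identical pair TUBB2A and TUBB2B and for TUBA1B, since their transcripts moved apart from their closest relatives. Each run is the 250 bases before a RefSeq transcription start (GRCh38.p14), read on the gene's strand. Capitals mark the motifs CCAAT, the CCAAT box; GGGCGG, the GC box; TATAAA, the TATA box; and TTTGAA, found in cell cycle homology regions. Both strands were searched.
TUBB2A: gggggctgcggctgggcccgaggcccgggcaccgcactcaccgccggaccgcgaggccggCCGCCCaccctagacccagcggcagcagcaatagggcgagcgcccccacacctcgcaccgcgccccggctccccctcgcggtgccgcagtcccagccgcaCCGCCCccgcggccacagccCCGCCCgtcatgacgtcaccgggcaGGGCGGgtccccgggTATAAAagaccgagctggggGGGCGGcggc
TUBB2B: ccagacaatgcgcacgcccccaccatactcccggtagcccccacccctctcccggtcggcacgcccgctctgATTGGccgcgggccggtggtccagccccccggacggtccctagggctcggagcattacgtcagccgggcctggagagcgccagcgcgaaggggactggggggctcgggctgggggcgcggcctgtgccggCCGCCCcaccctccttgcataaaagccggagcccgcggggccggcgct
TUBA1B: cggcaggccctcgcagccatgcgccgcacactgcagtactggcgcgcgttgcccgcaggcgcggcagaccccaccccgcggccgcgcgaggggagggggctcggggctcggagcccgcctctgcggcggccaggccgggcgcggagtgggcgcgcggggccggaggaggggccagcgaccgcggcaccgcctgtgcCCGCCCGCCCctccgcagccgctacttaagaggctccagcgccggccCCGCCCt
They lie at chr6:3157545-3157794, chr6:3227654-3227903 and chr12:49131396-49131645, all on the minus strand. TUBB2A held 5 GC boxes, 1 TATA box and no CCAAT box, TUBB2B 1 CCAAT box and 1 GC box, and TUBA1B 3 GC boxes, of which 2 overlap, and no CCAAT box. Although their coding sequences are nearly identical, the TUBB2A and TUBB2B windows were identical at 56.8% of aligned positions (130 of 229). All 10 members matched promoter windows, 15 in all, of which 10 held a CCAAT box. The 8 genes other than TUBB2A and TUBA1B had one in at least 1 window, but TUBB, TUBB3 and TUBB6 also had a window without one. This split depends on the start used and was noticed after the values were seen. Its part in the changes was not tested. Over all 35116 promoter windows of this length, 32.0% held CCAAT, 42.6% GGGCGG, 10.7% TATAAA and 13.3% TTTGAA.

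Libraries held 15567057 to 22869590 counts. Ribosomal protein mRNAs took 20.8% to 23.1% of the counts after 24 h of THZ1, against 9.04% to 11.6% in DMSO, and mRNAs of the mitochondrial genome 3.46% to 4.44% against 0.862% to 1.25%. The TMM scaling factors of the THZ1 24 h libraries (0.532 to 0.559) were correspondingly below those of DMSO (1.15 to 1.27). Levels are given as CPM, the read count scaled to a common library size with the TMM factors. MKI67, a proliferation marker, varied widely within groups, from 22.3 to 454 CPM in DMSO and from 7.13 to 37.0 after 24 h of THZ1. The epithelial keratins KRT8 (791 to 3097 CPM) and KRT18 (238 to 538 CPM) and EPCAM (10.1 to 68.3 CPM) were present in every library. The ductal keratin KRT19 reached at most 0.204 CPM, and MUC1 at most 1.21 CPM. Other epithelial markers were also low, with KRT7 at 0.158 to 4.39 CPM, CDH1 at 0.140 to 6.76 and SOX9 at 0.285 to 7.82. The T-cell, macrophage, acinar and islet markers CD3E, CD68, PRSS1, CPA1, INS and GCG were at 0 counts in every library. The immune marker PTPRC reached at most 0.306 CPM, and the endothelial markers PECAM1 and CDH5 at most 0.245 and 1.28. The fibroblast markers DCN and COL1A1 reached at most 0.140 and 7.25 CPM. In bulk RNA of this kind, fewer cells of a type and less RNA per cell cannot be told apart.

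In DMSO the beta-tubulin mRNAs were led by TUBB and TUBB4B. Per kilobase of exon, TUBB reached 433 CPM ± 34.1 (SD, n = 3 libraries), TUBB4B 385 ± 16.8 and TUBB6 162 ± 16, and their library ranges did not overlap. The alpha genes TUBA1C (107 ± 18.4) and TUBA1B (85.4 ± 12.3) followed, with overlapping ranges. TUBG1 stood at 25.0 ± 1.36, TUBA1A at 14.8 ± 4.43, TUBB2A at 13.8 ± 1.40 and TUBB2B at 7.01 ± 0.249 CPM per kilobase. The ranges of TUBA1A and TUBB2A overlapped. TUBB3, the neuronal isotype, was at 0.126 ± 0.0193, from 13, 12 and 15 reads. Together the 10 genes took 0.460% ± 0.0182 of the counts.

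**Figure D1:**
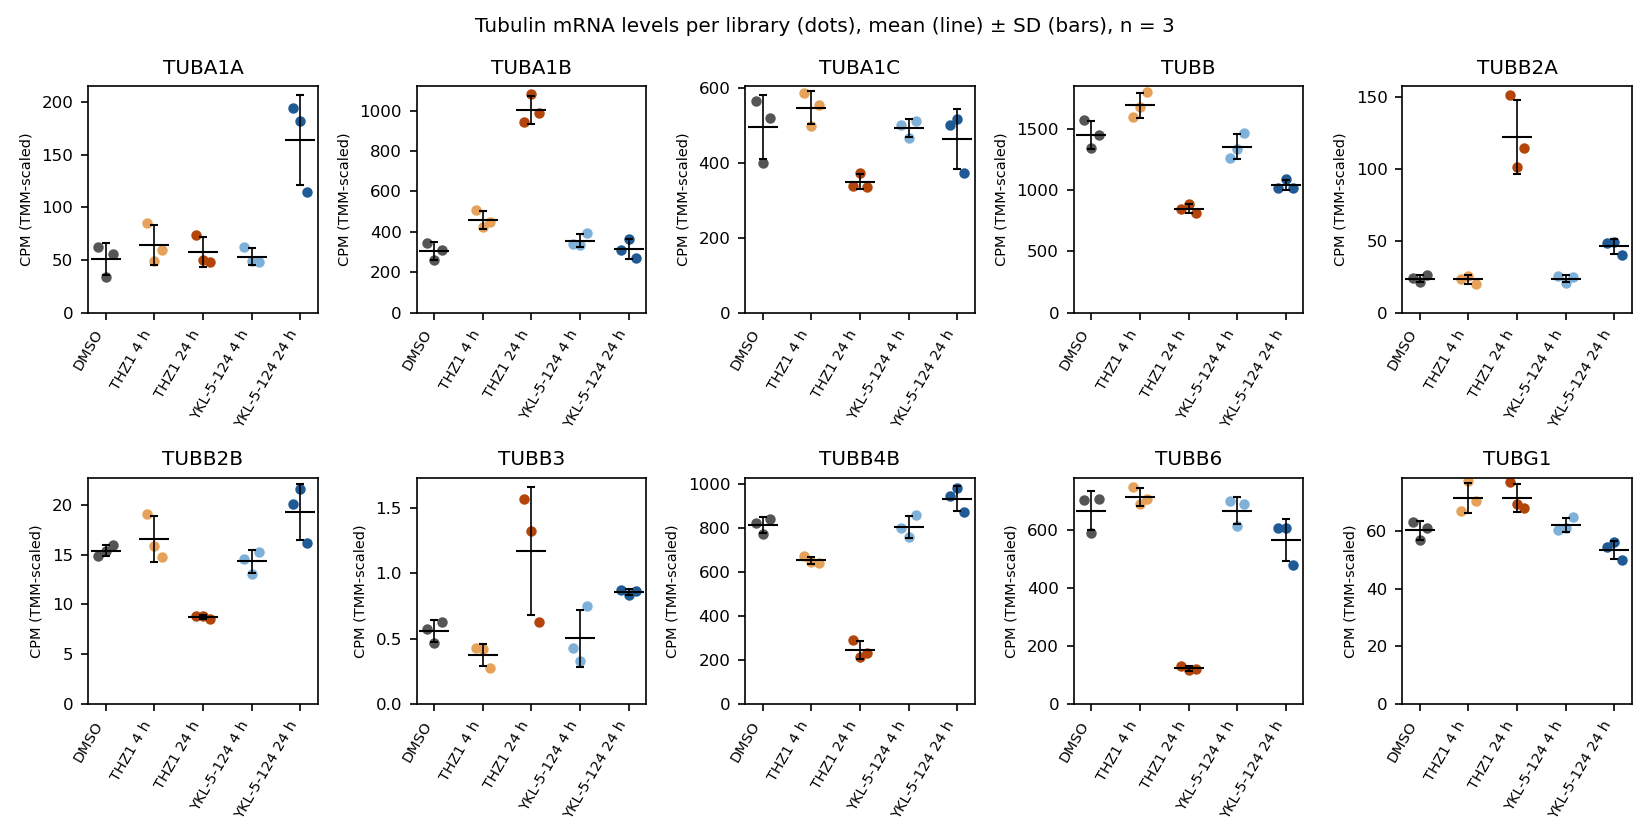
Level of each tubulin gene in each of the 15 libraries, in CPM on a linear axis from 0 that differs by gene; points are libraries by group, lines are means and bars are SD (n = 3). TUBA1B and TUBB2A stand above DMSO after 24 h of THZ1 while TUBB6 and TUBB4B stand below it, and TUBA1A stands above it after 24 h of YKL-5-124.

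Tubulin genes were called in both directions after 24 h of THZ1. TUBB2A rose 5.16-fold and TUBA1B 3.29-fold over DMSO, while TUBB6 fell to 0.184 and TUBB4B to 0.303 of the DMSO level. TUBB, TUBB2B and TUBA1C were also lower, TUBB3 and TUBG1 were higher, and TUBA1A was not called. By the quasi-likelihood test of edgeR with Benjamini-Hochberg adjustment over all 14461 genes (threshold 0.05, as everywhere here), 4 of the 10 members were higher and 5 lower. Of all genes tested, 32.3% were higher and 44% lower, so being called was common in this comparison. The median log2 fold change was −0.16 over the members and −0.37 over all genes tested.

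TUBB2A gave 24.2, 21.1 and 25.9 CPM in the DMSO libraries and 151, 102 and 115 after 24 h of THZ1. Every treated library was above every DMSO library, and the log2 fold change was 2.37 (SE 0.161, adjusted p = 2.59e-09, edgeR with Benjamini-Hochberg adjustment). TUBB2B, its near-copy on the same chromosome, went the other way, from 14.8, 15.4 and 15.9 CPM in DMSO to 8.82, 8.88 and 8.56. Its libraries did not overlap either (log2 fold change −0.81, SE 0.148, adjusted p = 0.000126, edgeR with Benjamini-Hochberg adjustment). The ratio of TUBB2A to TUBB2B reads within a library therefore differed: it was 1.63, 1.37 and 1.63 in DMSO and 17.2, 11.4 and 13.4 after 24 h of THZ1. A ratio taken within a library does not depend on how libraries are scaled.

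TUBA1B, an alpha-tubulin of most cell types, was at 347, 259 and 310 CPM in DMSO and at 942, 1081 and 989 after 24 h of THZ1. All treated libraries were above all controls (log2 fold change 1.72, SE 0.136, adjusted p = 1.43e-08, edgeR with Benjamini-Hochberg adjustment). TUBA1C, its neighbour, was at 564, 399 and 521 CPM in DMSO and at 339, 372 and 336 after treatment, lower in every library (log2 fold change −0.50, SE 0.139, adjusted p = 0.0039, edgeR with Benjamini-Hochberg adjustment). The TUBA1C call was lost under RLE scaling (−0.18), upper-quartile scaling (−0.11) and DESeq2 (−0.18). Within libraries the ratio of TUBA1B to TUBA1C reads was 0.620 ± 0.0274 (SD, n = 3) in DMSO and 2.88 ± 0.0869 after 24 h of THZ1, without overlap. TUBA1A, the alpha-tubulin best known from developing neurons, gave 62.6, 33.7 and 55.9 CPM in DMSO and 74.0, 49.7 and 48.4 in the treated libraries, which overlapped (log2 fold change 0.18, 95% interval −0.39 to 0.75).

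TUBB6 had the largest fall among the members. Its levels were 703, 589.8 and 705 CPM in DMSO and 131, 117 and 120.0 after 24 h of THZ1, a log2 fold change of −2.44 (SE 0.116, adjusted p = 5.87e-11, edgeR with Benjamini-Hochberg adjustment). TUBB4B, a broadly expressed beta-tubulin, was at 824, 773 and 842 CPM in DMSO and at 292, 215 and 233 after treatment (log2 fold change −1.72, SE 0.112, adjusted p = 1.46e-09, same test). Neither gene had a treated library near the control range. TUBB fell less, from 1571, 1342 and 1448 CPM to 844, 885 and 814 (log2 fold change −0.78, SE 0.0941, adjusted p = 1.86e-06, edgeR with Benjamini-Hochberg adjustment). Here too the groups did not overlap, and TUBB, TUBB2B, TUBB4B and TUBB6 stayed lower under all 5 scalings tried.

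TUBB3 rested on few reads, 13, 12 and 15 in DMSO and 13, 13 and 6 after 24 h of THZ1. On the scaled level this gave 0.577, 0.464 and 0.632 CPM in DMSO and 1.57, 1.33 and 0.626 after treatment, and the libraries overlapped. Its call (log2 fold change 1.06, SE 0.402, adjusted p = 0.0259, edgeR with Benjamini-Hochberg adjustment) was lost without a filter on low counts and without DMSO replicate 1 or 2 or THZ1 24 h replicate 1 or 2. TUBG1, the gamma-tubulin gene, moved little, from 63.1, 56.6 and 60.9 CPM to 76.9, 69.3 and 68.0 (log2 fold change 0.25, SE 0.0972, adjusted p = 0.0312, same test). Its libraries did not overlap, but the call was lost without the filter (0.14) and without DMSO replicate 2 (0.19) or 3 (0.24).

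Scaling set the zero of this comparison. With TMM factors 4668 genes were higher and 6356 lower, with library totals 2266 and 9384, and with ribosomal protein mRNAs as the reference 574 and 11721. The median of all genes moved with it, from −0.37 to −1.49 and −2.55 on the log2 scale. A scaling shifts all genes by nearly the same amount, so a member's distance from that median is nearly fixed by construction and is given as a description only: TUBB2A was 2.73 and TUBA1B 2.08 above it with TMM, and TUBB4B 1.36 and TUBB6 2.08 below it. Among all genes tested, 92.7% had a lower log2 fold change than TUBB2A, 84.7% a lower one than TUBA1B and 14.1% a lower one than TUBB6. The figure was 47.5% for TUBA1C, 42% for TUBB and 41.3% for TUBB2B, which were called lower but lay near the middle of all genes. It was 61.2% for TUBG1, which was called higher. Against library totals TUBG1 and TUBB3 lay below DMSO (−0.88 and −0.06), and against ribosomal protein mRNAs TUBA1B did too (−0.45), while TUBB2A was at 0.18 (adjusted p = 0.326, edgeR with Benjamini-Hochberg adjustment).

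**Figure D2:**
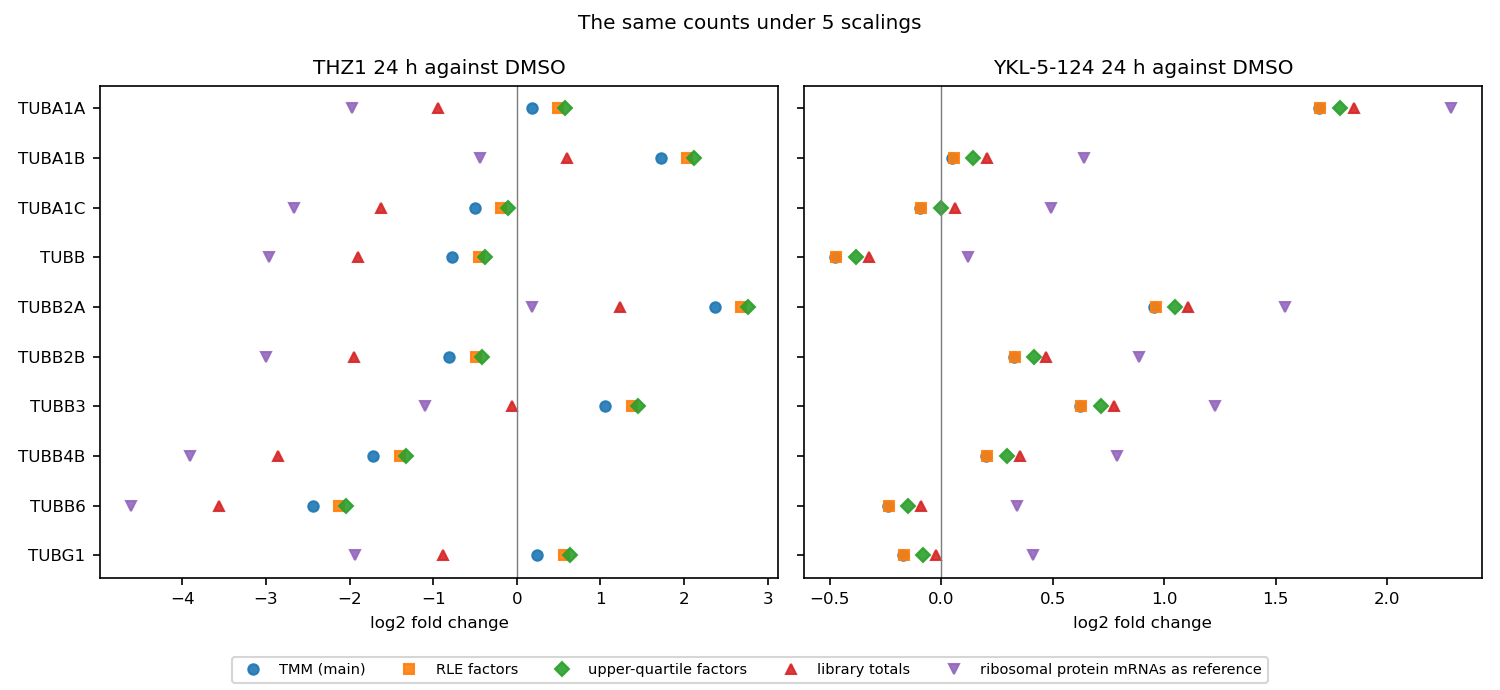
Log2 fold change of each tubulin gene after 24 h of THZ1 or of YKL-5-124 against DMSO under 5 scalings (TMM, library totals, RLE, upper quartile, and ribosomal protein mRNAs as reference). A scaling shifts all genes by nearly the same amount, so the order is nearly fixed by construction while the zero shifts, most of all for THZ1, where TUBA1B lies at 1.72 with TMM and at −0.45 against ribosomal protein mRNAs.

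After 4 h of THZ1 most of this pattern had not appeared. TUBA1B was already higher, 1.51-fold, and TUBB4B was lower, at 0.804 of DMSO, and the other 8 members were not called. This made 1 of 10 members higher, where 16.9% of all genes tested were higher, and 1 lower, where 25.1% were lower. TUBA1B was at 509, 423 and 446 CPM against 347, 259 and 310 in DMSO, with no overlap (log2 fold change 0.59, SE 0.133, adjusted p = 0.00228, edgeR with Benjamini-Hochberg adjustment). The TUBA1B call was lost with ribosomal protein mRNAs as the reference, where 0.201% of all genes tested were higher. TUBB4B was at 672, 648 and 642 CPM against 824, 773 and 842, also with no overlap (log2 fold change −0.31, SE 0.108, adjusted p = 0.0293, edgeR with Benjamini-Hochberg adjustment). The TUBB4B call was lost under RLE scaling (−0.23), with DESeq2, without the filter and without DMSO replicate 1 or 3 or THZ1 4 h replicate 2 or 3.

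TUBB and TUBG1 were above DMSO in all 3 libraries at 4 h without passing the test. TUBB gave 1597, 1679 and 1802 CPM (log2 fold change 0.22, adjusted p = 0.0726) and TUBG1 66.8, 77.1 and 70.4 CPM (log2 fold change 0.25, adjusted p = 0.0522) by edgeR with Benjamini-Hochberg adjustment. Both were called higher under RLE scaling (0.30 and 0.33), upper-quartile scaling and DESeq2. TUBB2A, the member with the largest rise at 24 h, was at 23.7, 25.6 and 19.9 CPM at 4 h, inside its DMSO range or near it, and its log2 fold change of −0.04 had a 95% interval of −0.37 to 0.29. TUBB6, with the largest fall at 24 h, was at 748, 687 and 707 CPM (log2 fold change 0.10, 95% interval −0.13 to 0.33). The remaining members lay between −0.56 (TUBB3, on 9, 8 and 6 reads) and 0.35 (TUBA1A).

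Between 4 h and 24 h of THZ1, TUBB2A, TUBB3 and TUBA1B rose and 5 members fell, where 31.4% of all genes tested rose and 35.7% fell. TUBB2A rose by a log2 fold change of 2.41 (SE 0.162), TUBB3 by 1.62 (SE 0.427) and TUBA1B by 1.13 (SE 0.134). TUBB6 fell by 2.54 (SE 0.116), TUBB4B by 1.41 (SE 0.111), TUBB by 1.00 (SE 0.0945), TUBB2B by 0.92 (SE 0.148) and TUBA1C by 0.65 (SE 0.139). Only 4.45% of all genes tested had a lower log2 fold change than TUBB6. TUBG1 was not called with TMM scaling (log2 fold change 0.00, 95% interval −0.21 to 0.21). It was called higher under RLE scaling (0.24), upper-quartile scaling (0.38) and DESeq2 (0.24), and lay below its 4 h level under library totals (−0.87).

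After 24 h of YKL-5-124 a different alpha-tubulin changed. TUBA1A rose 3.23-fold, TUBB2A rose 1.94-fold and TUBB fell to 0.718 of DMSO, and the other 7 members were not called. These were 2 of 10 members higher, where 8.92% of all genes tested were higher, and 1 lower, where 12.7% were lower. Among all genes tested, 97.7% had a lower log2 fold change than TUBA1A and 93% a lower one than TUBB2A. The median log2 fold change was 0.13 over the members and −0.04 over all genes tested.

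TUBA1A was at 195, 183 and 115 CPM after 24 h of YKL-5-124, against 62.6, 33.7 and 55.9 in DMSO. Every treated library was above every control, with the third replicate the lowest of the treated and the second the lowest of the controls. The log2 fold change was 1.69 (SE 0.269, adjusted p = 0.000489, edgeR with Benjamini-Hochberg adjustment), and with 1 library left out in turn it ranged from 1.47 to 1.90 and was called each time. In each of the 5 groups the library with the lowest TUBA1A was also the one with the highest MKI67. These MKI67 levels were 454 CPM in DMSO, 337 and 37.0 after 4 h and 24 h of THZ1, and 178 and 408 after 4 h and 24 h of YKL-5-124, and their part in the result was not tested. Over the 15 libraries, not split by group, the neuronal marker MAP2 ran from 0.209 to 2.33 CPM, SYP from 0.789 to 12.3 and RBFOX3 from 0 to 0.318. Reads of TUBA1A and the opposite-strand TUBA1C cannot be told apart where they overlap, but TUBA1C itself was at 500.4, 517 and 372 CPM against 564, 399 and 521 (log2 fold change −0.09, 95% interval −0.39 to 0.20).

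TUBB2A was at 48.7, 49.3 and 40.2 CPM after 24 h of YKL-5-124, all above DMSO (log2 fold change 0.96, SE 0.155, adjusted p = 0.00058, edgeR with Benjamini-Hochberg adjustment). TUBB2B was at 20.1, 21.6 and 16.2 CPM, also above its controls in every library but not called (log2 fold change 0.33, adjusted p = 0.110, same test). TUBB was at 1020, 1089 and 1021 CPM, below all controls (log2 fold change −0.48, SE 0.0937, adjusted p = 0.00216, edgeR with Benjamini-Hochberg adjustment). TUBB4B was at 949, 983 and 872 CPM, all above its controls, without passing the test (log2 fold change 0.20, 95% interval −0.03 to 0.43). TUBB6 at 604, 606 and 480.4 CPM (−0.24, 95% interval −0.47 to −0.01) and TUBG1 at 54.2, 56.1 and 49.8 CPM (−0.17, 95% interval −0.38 to 0.03) were not called either. TUBB3 had 25, 20 and 22 reads, more than any DMSO library, with a log2 fold change of 0.62 (95% interval −0.17 to 1.41). TUBB2B and TUBB4B were called higher when scaled by library totals or against ribosomal protein mRNAs, and against the latter TUBB lay above DMSO (0.12).

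After 4 h of YKL-5-124 none of the 10 members was called by edgeR, none had an unadjusted p under 0.05, and DESeq2 called 0. Few genes were called at all, 0.0553% higher and 0.463% lower. The log2 fold changes of the members lay between −0.16 for TUBB3 and 0.22 for TUBA1B. TUBA1B was at 339, 335 and 392 CPM, overlapping DMSO, with a 95% interval of −0.06 to 0.50 on the log2 scale, so a rise of the size seen after 4 h of THZ1 lay outside it and a smaller one inside. TUBB4B at 799, 761 and 858 CPM had an interval of −0.24 to 0.22. From 4 h to 24 h of YKL-5-124, TUBA1A (1.63, SE 0.268), TUBB2A (0.96, SE 0.155) and TUBB2B (0.43, SE 0.139) rose, and TUBB fell by 0.38 (SE 0.0936), where 9.22% of all genes tested rose and 11.9% fell. The TUBB2B call was lost in 5 of the 6 runs that left out 1 library (values of 0.34 to 0.54 over the 6) and without the filter (0.43).

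**Figure D3:**
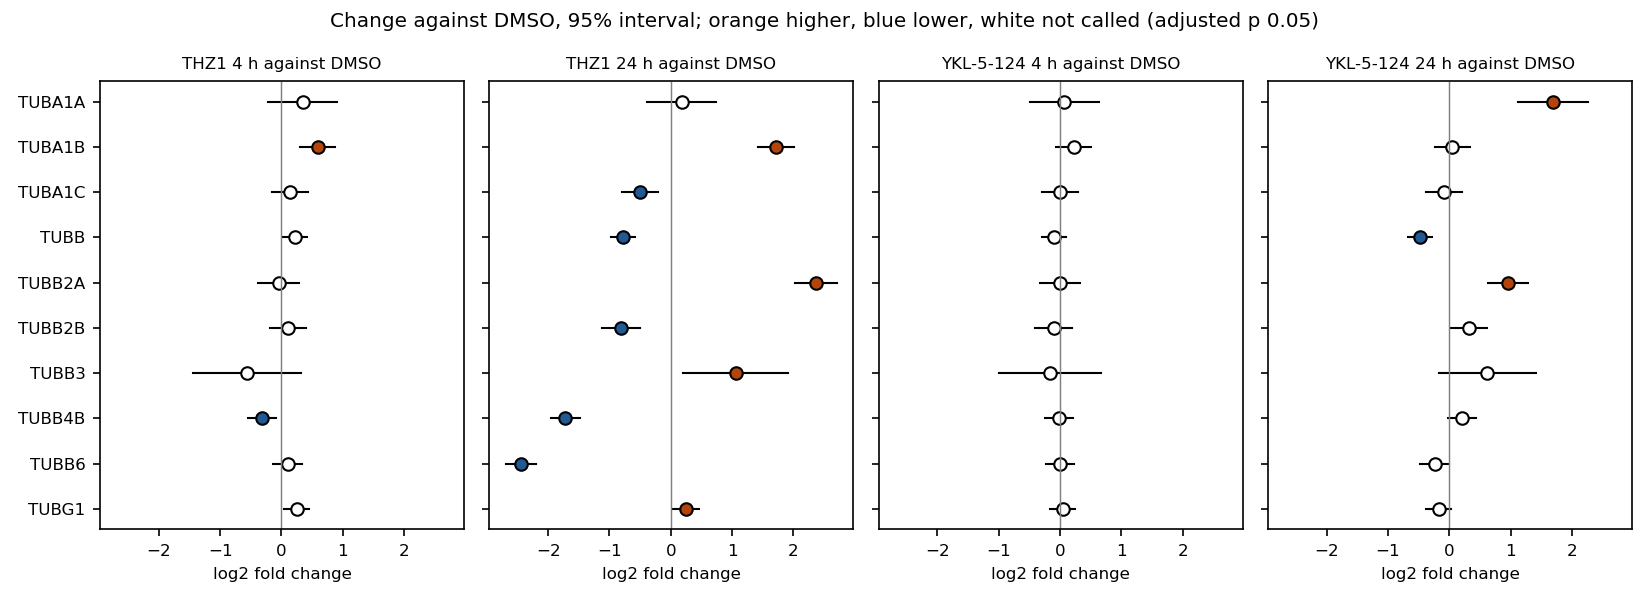
Log2 fold change of each tubulin gene against DMSO in the 4 treated groups, with 95% intervals from the edgeR fit; orange marks genes called higher, blue genes called lower and white genes not called. With THZ1 9 of 10 genes are called at 24 h and 2 at 4 h, and with YKL-5-124 3 at 24 h and none at 4 h.

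The compounds were compared directly at the same dose and time. At 24 h TUBA1B was 3.18-fold, TUBB2A 2.66-fold and TUBG1 1.34-fold higher with THZ1 than with YKL-5-124, and TUBA1A, TUBA1C, TUBB, TUBB2B, TUBB4B and TUBB6 were lower. This made 3 of 10 higher and 6 lower, where 31.8% and 44.1% of all genes tested were called. TUBB6 stood at 0.218 of its YKL-5-124 level (log2 difference −2.20, SE 0.115, adjusted p = 1.53e-10), TUBB4B at 0.264 (−1.92, SE 0.112, adjusted p = 4.88e-10) and TUBA1A at 0.349 (−1.52, SE 0.27, adjusted p = 0.000107) by edgeR with Benjamini-Hochberg adjustment. TUBB2A, called higher against DMSO with both compounds, was at 102 to 151 CPM with THZ1 and 40.2 to 49.3 with YKL-5-124 (log2 difference 1.41, SE 0.156, adjusted p = 6.72e-07, edgeR with Benjamini-Hochberg adjustment). These 2 comparisons with DMSO share their control libraries. The TUBB2A difference between compounds was not called under library totals. Against ribosomal protein mRNAs it was reversed, as were those of TUBA1B and TUBG1. TUBB, lower against DMSO with both, differed by −0.30 (SE 0.0937, adjusted p = 0.00908, same test), a difference that was 0.02 under RLE scaling and with DESeq2. The TUBA1C difference (−0.41) was also lost under RLE and upper-quartile scaling and DESeq2. TUBB3 did not pass (0.44, 95% interval −0.38 to 1.26).

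At 4 h TUBA1B (log2 difference 0.37, SE 0.133, adjusted p = 0.0429) and TUBB (0.32, SE 0.0936, adjusted p = 0.0158) were higher and TUBB4B was lower (−0.30, SE 0.108, adjusted p = 0.0432) with THZ1 than with YKL-5-124, by edgeR with Benjamini-Hochberg adjustment. Of all genes tested, 11.4% were higher and 21.9% lower. The libraries of these 3 genes did not overlap between compounds, but each call was lost in several of the runs that left out 1 library. For TUBB2A the difference was −0.04 (95% interval −0.37 to 0.29), for TUBB6 0.10 (−0.13 to 0.33) and for TUBA1C 0.15 (−0.14 to 0.45). TUBG1 was above YKL-5-124 in every THZ1 library without passing (0.21, 95% interval 0.00 to 0.41).

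The change from 4 h to 24 h itself differed between the compounds for 8 of the 10 members, by the interaction of compound and time in the same fit. It was more positive with THZ1 for TUBA1B and TUBB2A and more negative for TUBA1A, TUBA1C, TUBB, TUBB2B, TUBB4B and TUBB6, which is 2 and 6 of 10 where 26.6% and 31% of all genes tested were called. The interaction was −1.80 (SE 0.376, adjusted p = 0.00077) for TUBA1A and −1.35 (SE 0.203, adjusted p = 3.96e-05) for TUBB2B on the log2 scale, edgeR with Benjamini-Hochberg adjustment. The TUBA1C interaction (−0.56) was no longer called under RLE scaling (−0.33), upper-quartile scaling (−0.25), DESeq2 (−0.33) or without YKL-5-124 24 h replicate 2 (−0.49). TUBB3 (0.83, 95% interval −0.38 to 2.05) and TUBG1 (0.21, 95% interval −0.08 to 0.51) did not pass, although TUBG1 was called under RLE scaling (0.45), upper-quartile scaling (0.53) and DESeq2 (0.44).

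The make-up of the alpha pool was compared within each library, as the share of the summed counts per kilobase of exon of the 3 alpha genes. Such shares do not depend on library scaling. In DMSO TUBA1C held 51.6% ± 0.546 (SD, n = 3 in each group), TUBA1B 41.4% ± 1.45 and TUBA1A 7.05% ± 1.05. With THZ1 for 24 h, TUBA1B held 75.3% ± 1.5 and TUBA1C 20.2% ± 0.233, both outside their DMSO range in all 3 libraries. TUBA1B was already at 48.4% ± 0.790 after 4 h of THZ1, above all controls. TUBA1A held 20.1% ± 2.38, after 24 h of YKL-5-124, with libraries at 17.8% to 22.5% against 5.84% to 7.72% in DMSO. The order of TUBA1B and TUBA1C depends on the length used: with the length of the coding transcript, TUBA1B held 49.65% and TUBA1C 43.47% in DMSO, and 44.89% and 35.57% after 24 h of YKL-5-124. After 24 h of THZ1 TUBA1B then held 80.82%.

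In the beta pool of 6 genes, TUBB held 43.2% ± 1.23 of DMSO counts per kilobase, TUBB4B 38.5% ± 1.19, TUBB6 16.1% ± 0.659, TUBB2A 1.37% ± 0.0812 and TUBB2B 0.703% ± 0.0563. With THZ1 for 24 h, TUBB2A held 14.9% ± 2.10 and TUBB6 6.29% ± 0.142, so the order of these 2 genes was exchanged. TUBB, though lower in level, held 53.4% ± 4.38 of the pool, above its DMSO share in every library, and TUBB4B held 24.5% ± 2.36. TUBB2B, also lower in level, held 0.844% ± 0.054, above its DMSO share in every library. With YKL-5-124 for 24 h, TUBB4B held 47.8% ± 0.110 and TUBB 33.6% ± 1.42, again in exchanged order against DMSO. Both exchanges held with the length of the coding transcript. TUBB2A then held 12.53% and TUBB6 9.756% after 24 h of THZ1, against 1.073% and 23.23% in DMSO. TUBB4B held 44.83% and TUBB 30.74% after 24 h of YKL-5-124, against 35.87% and 39.25% in DMSO. Neither exchange was seen in shares of counts not divided by length. There TUBB2A held 9.036% and TUBB6 9.088% after 24 h of THZ1, and TUBB4B 35.84% and TUBB 40.07% after 24 h of YKL-5-124. Of the 9 alpha and beta genes, 8 had shares outside the DMSO range in all 3 THZ1 libraries at 24 h and 5 at 4 h. With YKL-5-124 there were 8 at 24 h and 1 at 4 h. An exact 2-sided permutation test of 3 against 3 libraries gave p = 0.1 for each of these, the smallest p it can reach, so none can pass 0.05. Shares within a pool add up to the whole, so these counts are not of independent changes and have no counterpart over all genes tested. After 24 h of YKL-5-124 the shares of TUBA1B and TUBA1C were below DMSO, while their levels were not called (log2 fold changes 0.05 and −0.09).

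**Figure D4:**
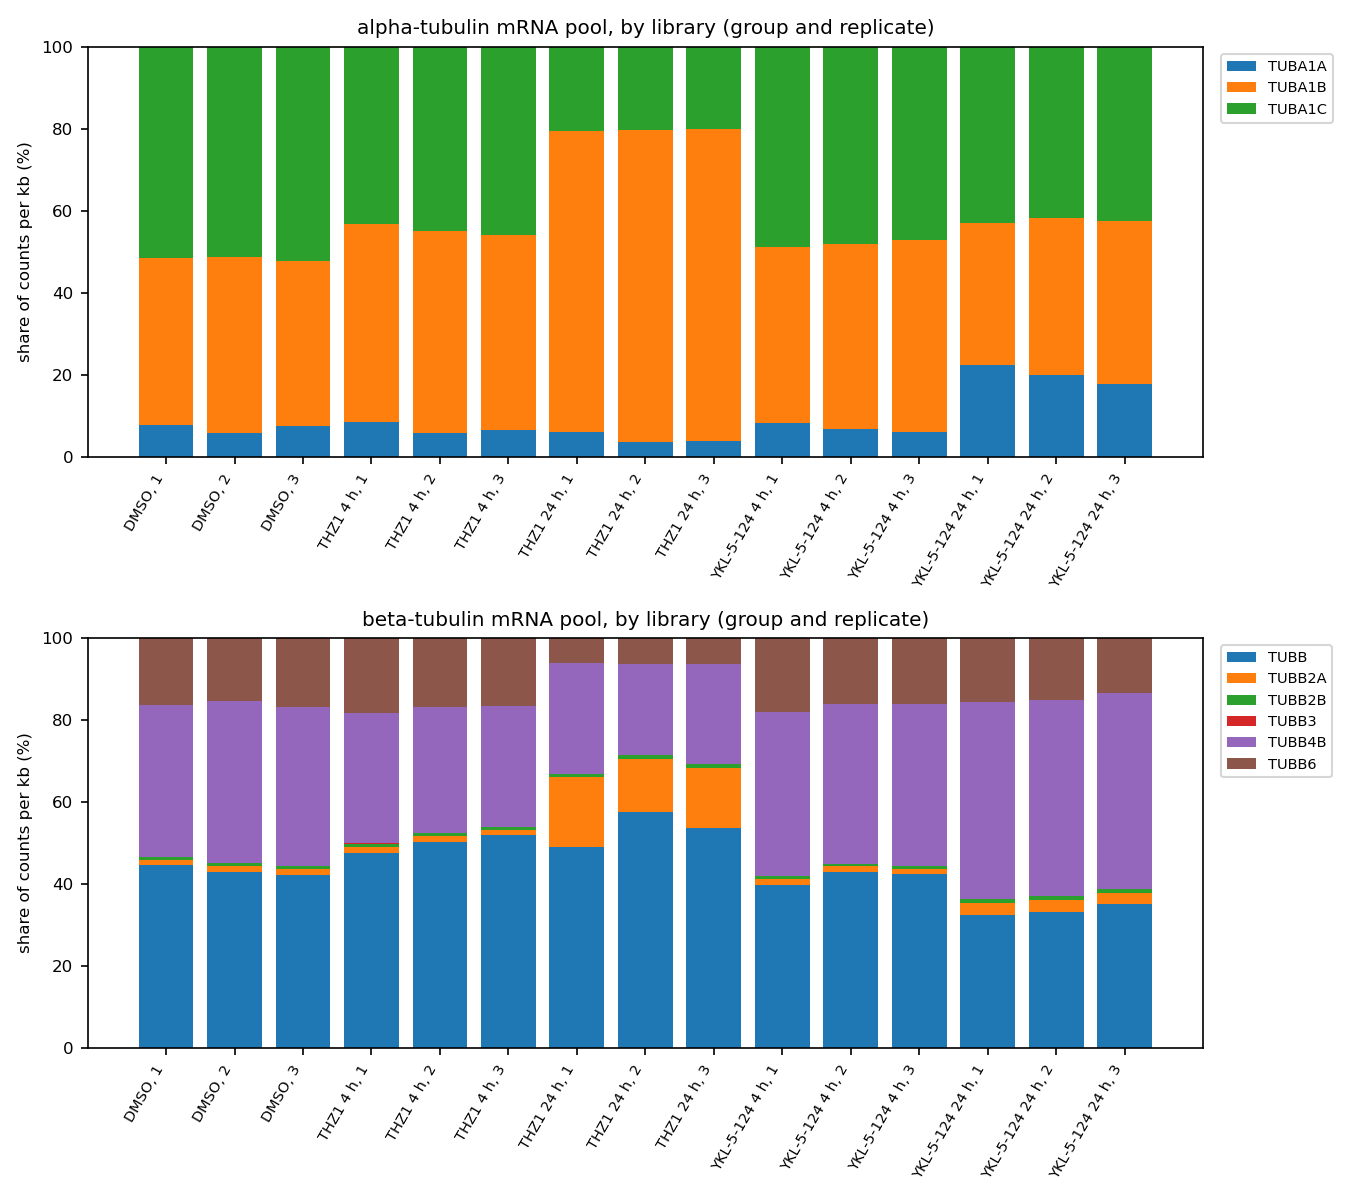
Composition of the alpha-tubulin pool (upper panel) and the beta-tubulin pool (lower panel) in each of the 15 libraries, as percent of the summed counts per kilobase of exon. TUBA1B takes 73.6% to 76.2% of the alpha pool after 24 h of THZ1, and TUBA1A takes 17.8% to 22.5% after 24 h of YKL-5-124.

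The balance between the pools also differed. The alpha pool came to 207 ± 35.0 CPM per kilobase in DMSO and 373 ± 21.2 after 24 h of THZ1, and the beta pool to 1001 and 474 CPM per kilobase. The ratio of alpha to beta within a library was 0.206 ± 0.0224 in DMSO. With THZ1 it was 0.264 ± 0.0278 at 4 h and 0.790 ± 0.0864 at 24 h, and with YKL-5-124 it was 0.229 ± 0.00461 and 0.254 ± 0.0307. With the length of the coding transcript in place of all exonic bases, the DMSO and THZ1 24 h ratios were 0.272 and 1.26. Ratios of reads between beta isotypes also differed between groups. TUBB6 to TUBB reads were 0.458 ± 0.0253 in DMSO and 0.145 ± 0.0113 after 24 h of THZ1. TUBB4B to TUBB reads were 0.561 ± 0.0314 in DMSO, 0.292 ± 0.0523 at 24 h of THZ1 and 0.895 ± 0.0387 at 24 h of YKL-5-124. TUBA1A to TUBA1C reads were 0.101 ± 0.0145 in DMSO and 0.350 ± 0.0398 after 24 h of YKL-5-124. As a share of all counts, the 10 genes were lowest after 24 h of THZ1, with 0.154% ± 0.00264 against 0.460% ± 0.0182 in DMSO, beside the larger ribosomal protein share given above, whose part in this was not tested.

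**Figure D5:**
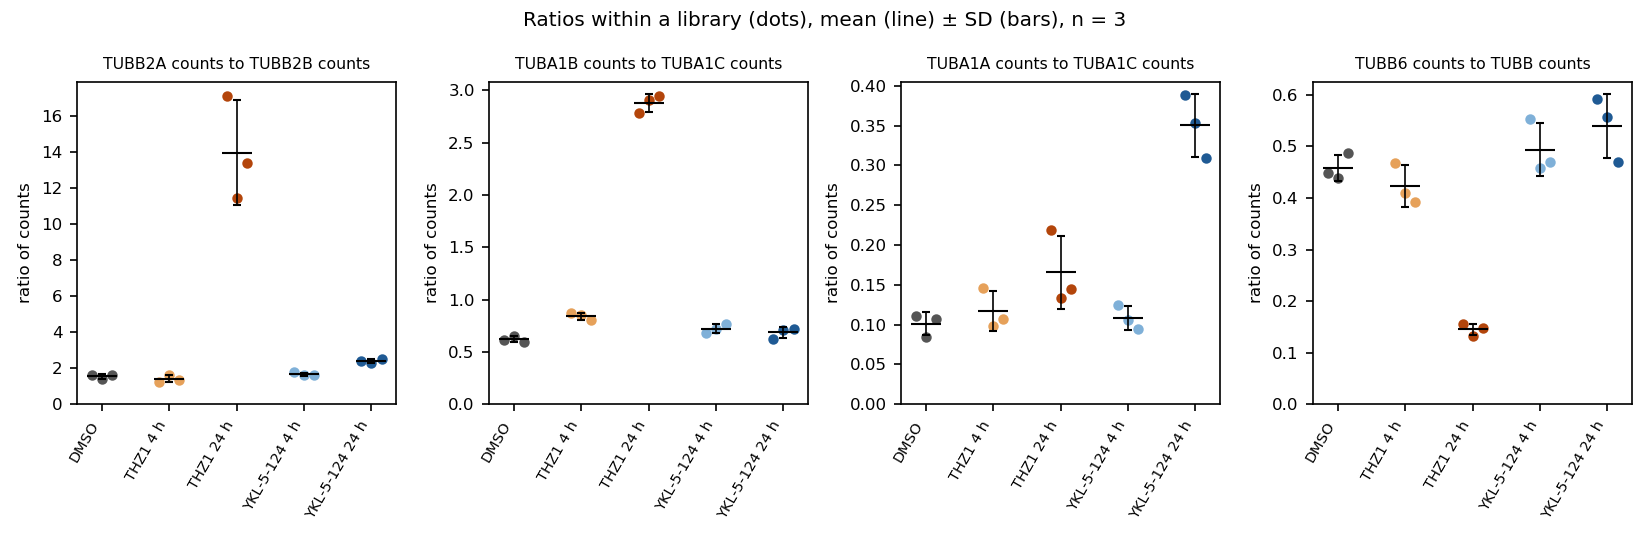
Ratios of read counts between pairs of tubulin genes within each library (TUBB2A to TUBB2B, TUBA1B to TUBA1C, TUBA1A to TUBA1C, TUBB6 to TUBB), on linear axes from 0 that differ by pair; points are libraries by group, lines are means and bars are SD (n = 3). The TUBB2A to TUBB2B ratio lies at 11.4 to 17.2 after 24 h of THZ1 and at 1.37 to 1.63 in DMSO.

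Per kilobase, the order of the members after 24 h of THZ1 began with TUBA1B (281 CPM) and TUBB (252), whose ranges overlapped, followed by TUBB4B (117). TUBA1C (75.3) and TUBB2A (70.9) overlapped, as did TUBB6 (29.8) and TUBG1 (29.6), ahead of TUBA1A (16.8), TUBB2B (3.99) and TUBB3 (0.265). With YKL-5-124 for 24 h the order began with TUBB4B (443) and TUBB (311), then TUBB6 (137), TUBA1C (100.0) and TUBA1B (88.3), the last pair overlapping. TUBA1A followed at 47.9 CPM per kilobase, above TUBB2A (26.7) and TUBG1 (22.1), whereas in DMSO it was below TUBG1. These orders and overlaps, and those in DMSO, used all exonic bases as the length. They can differ with another length, as given above for TUBA1B and TUBA1C.

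The other genes of the tubulin pathway were taken from lists by function. Folding needs prefoldin, the CCT chaperonin and the tubulin cofactors TBCA to TBCE, which hand alpha- and beta-tubulin into the dimer. Of 23 tested gene IDs of this list (22 symbols, since TBCE has 2 IDs), 17 were higher and 4 lower after 24 h of THZ1, where 32.3% of all genes tested were higher and 44% lower, and the median log2 fold change was 1.00 against −0.37 for all genes tested. TBCD (2.46, SE 0.155) and TBCB (2.29, SE 0.184), cofactors that bind beta- and alpha-tubulin, rose, and the cofactor-like TBCEL (−2.44, SE 0.228) and the chaperonin subunit CCT2 (−0.93, SE 0.19) fell. The count followed the scaling, as did the shares over all genes tested. Scaled by totals, 7 were higher and 10 lower, where 15.7% of all genes tested were higher and 64.9% lower. With ribosomal protein mRNAs as reference the counts were 0 and 17, where the shares were 3.97% and 81.1%. At 4 h of THZ1 11 were higher and 1 lower, where the shares over all genes tested were 16.9% and 25.1%. TBCD (0.57, SE 0.148) and TBCE (0.51, SE 0.171) rose and the cofactor TBCC fell by 2.84 (SE 0.19). The TBCE call was lost in 4 of the 6 runs that left out 1 library and under library totals, where the TBCD call was lost too. With YKL-5-124 for 24 h 1 was higher and 5 were lower, against 8.92% and 12.7% of all genes tested, among them the tubulin-folding GTPase ARL2 (−0.84, SE 0.212, lost in 2 of 6 runs with 1 library left out) and the prefoldin subunit PFDN2 (−0.75, SE 0.134).

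Of the 4 genes of tubulin mRNA autoregulation, CNOT1 and CNOT11, subunits of the CCR4-NOT deadenylase, fell by 2.51 (SE 0.149) and 2.18 (SE 0.123) after 24 h of THZ1. CNOT1 was at 77.5 CPM ± 6.54 (SD, n = 3) against 441 ± 41.5 in DMSO, and CNOT11 at 14.2 ± 2.48 against 64.3 ± 4.83. TTC5, the factor that recognises the nascent tubulin, was not called (0.20, 95% interval −0.10 to 0.49). By edgeR 2 of the 4 were lower, close to the share of all genes tested, of which 44% were lower and 32.3% higher. None of the 4 was higher by edgeR or at an unadjusted p under 0.05, and DESeq2 called 1 higher. CNOT11 was already lower after 4 h of THZ1 (−0.31, SE 0.113), a call that RLE scaling, DESeq2, the absence of a filter and 4 of the 6 runs with 1 library left out ended. Of all genes tested, 25.1% were lower at that time. In the YKL-5-124 libraries at 24 h edgeR called 0 of the 4, 2 were lower at an unadjusted p under 0.05, and DESeq2 called 1 lower. The edgeR shares over all genes tested were 8.92% higher and 12.7% lower.

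Of the 12 genes of the gamma-tubulin ring complex and its recruiting factors, 4 were higher and 5 lower after 24 h of THZ1, shares close to the 32.3% and 44% of all genes tested. The small ring subunits MZT2B (3.05, SE 0.251) and MZT2A (2.56, SE 0.135) rose, and TUBGCP5 (−2.21, SE 0.141), a ring core protein, and the centrosomal scaffold AKAP9 (−2.04, SE 0.507) fell, while TUBG1 changed by 0.25. MZT2B (0.96, SE 0.237) and MZT2A (0.64, SE 0.129) were already among the 3 members higher after 4 h of THZ1, where 16.9% of all genes tested were higher. The YKL-5-124 libraries at 24 h had 1 lower gene, the core protein TUBGCP3 (−0.53, SE 0.095), where 12.7% of all genes tested were lower. Of 12 further tubulin genes, 6 passed the filter on low counts. TUBD1, delta-tubulin, a centriole protein, fell by 2.05 (SE 0.354) after 4 h and by 2.48 (SE 0.412) after 24 h of THZ1. TUBG2, a second gamma-tubulin gene, rose by 0.60 (SE 0.249) after 24 h of THZ1, a call lost in 4 of the 6 runs with 1 library left out and without the filter, and lay below DMSO under library totals (−0.53). The minor alpha-tubulin TUBA4A fell by 0.91 (SE 0.231) after 24 h of THZ1 and rose by 0.93 (SE 0.197) after 24 h of YKL-5-124. TUBE1, epsilon-tubulin, fell by 0.79 (SE 0.241) after 24 h of YKL-5-124, and this call was lost in 4 of 6 such runs.

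Of 18 enzymes that modify tubulin, 6 were higher and 7 lower after 24 h of THZ1, shares close to those of all genes tested, among them the deglutamylases AGBL3 (2.38, SE 0.273) and AGBL5 (1.94, SE 0.0954), which rose, and the polyglutamylase TTLL4 (−3.61, SE 0.261) and the detyrosinase VASH1 (−1.93, SE 0.329), which fell. At 4 h of THZ1 5 were higher, among them AGBL5 (0.57, SE 0.0928) and the polyglutamylase TTLL5 (0.64, SE 0.204), where 16.9% of all genes tested were higher. The 2 lower ones were TTLL4 (−1.56, SE 0.216) and its relative TTLL11 (−1.46, SE 0.275), where 25.1% of all genes tested were lower. With YKL-5-124 for 24 h, 1 was higher, TTLL7 (0.89, SE 0.237), and 2 were lower, TTLL12 (−0.68, SE 0.113) and TTLL4 (−0.64, SE 0.209). The shares over all genes tested were 8.92% higher and 12.7% lower. Of the 6 runs with 1 library left out, 4 ended the TTLL5 call at 4 h of THZ1, 3 the TTLL7 call and 5 the TTLL4 call at 24 h of YKL-5-124. Of 27 microtubule-binding, end-binding and severing proteins, 3 were higher and 19 lower after 24 h of THZ1, where 32.3% of all genes tested were higher and 44% lower, with a median of −1.14 against −0.37. STMN1, which sequesters tubulin dimers, rose by 1.93 (SE 0.101), from 456 CPM ± 38.0 to 1731 ± 75.5, and its relative STMN3 by 2.41 (SE 0.292). FIGNL1, of the fidgetin family, fell by 4.45 (SE 0.169) and CAMSAP2, a minus-end binder, by 2.99 (SE 0.155). After 4 h of THZ1 4 were higher, among them STMN1 (0.57, SE 0.0977) and the plus-end binder CLASP2 (0.46, SE 0.10), and 5 lower, among them FIGNL1 (−1.73, SE 0.133) and the minus-end binder CAMSAP3 (−1.87, SE 0.533; −1.06 without DMSO replicate 2, one of 2 runs that ended its call). After 24 h of YKL-5-124 2 of the 27 were higher, the end-binding MAPRE2 among them (0.71, SE 0.14), and 1 was lower, FIGNL1 (−0.52, SE 0.128). After 4 h of YKL-5-124 edgeR called 0 genes in each of these 6 lists, while at an unadjusted p under 0.05 the folding list had 1, the ring complex 1, the modifying enzymes 2, the binding proteins 2 and the other lists 0. DESeq2 also called 0 in each. AGBL5, CNOT1, CNOT11, MZT2B, PFDN2, TBCB, TBCD, TBCE, TTLL5 and TUBA4A share exonic bases with another tested gene, so their values may hold its reads.

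The genes with the most similar profiles were ranked by Pearson's r of log2(CPM + 1) over the 15 libraries, among the 9138 genes whose mean level was 5 CPM or more. For TUBA1B they were PMVK (r = 0.991), SRSF9 (0.991) and MYL6B (0.991). For TUBB they were RBM17 (r = 0.973), DDX18 (0.970) and ADCK1 (0.970). These are descriptions over libraries that share 5 group means.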

How the data were processed

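Total RNA of PATU-8988T cells was sequenced in 15 libraries, 3 per group. The authors deposited 1 table of raw read counts per gene, not normalized, with gene positions and exonic lengths. The submitters' processing notes name the aligner STAR (2.6.1d), the counter featureCounts (1.5.0-p3), the GRCh38 build and the package DESeq2 (1.24.0). Strand setting, filters and treatment of reads with several matches were not given in the sources used here. There were 0 columns of no sample. Depth was 15567057 to 22869590 counts per library, and replicates of a group differed by more than sampling noise (chi-square over its degrees of freedom was 4.14 to 72.5).

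Genes were filtered with filterByExpr (minimum count 10, minimum total 15), leaving 14461. Tests used the quasi-likelihood fit of edgeR 4.0.16 (R 4.3.3) on all 15 libraries with group as factor, TMM scaling and Benjamini-Hochberg adjustment over all genes tested, at 0.05, for 9 comparisons. The fit was also run on simulated data in which few genes were changed, in either direction. That run does not test the scaling where many genes are called, as after 24 h of THZ1. CPM used TMM-scaled library sizes. Shares and ratios were taken within libraries from counts, per exonic kilobase where levels of different genes were set side by side. Alternatives were other scalings, no filter, DESeq2 1.42.0, a fit of only the groups compared, a replicate block and leaving out each library. Windows of 100 bases of GENCODE release 29 transcripts were compared for shared sequence, and coding sequences and promoters were aligned with Biopython 1.88. The members and lists were chosen with earlier results of these data known. All 10 members were described; of each list, up to 2 called genes per direction and DMSO comparison were named, those with the largest change at a mean of at least 1 CPM, and the 3 most alike genes were named for TUBA1B and TUBB. Replicate numbers were not taken to pair libraries, since only 21 of 30 same-number correlations were above 0.1.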

Additional observations from a re-analysis of the deposited data

Results flagged for a closer look

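For 8 of the 10 tubulin genes, the change from 4 h to 24 h differed between THZ1 and YKL-5-124 by a test of the difference itself, the interaction of compound and time in the quasi-likelihood test of edgeR (Benjamini-Hochberg adjusted). On the log2 scale, THZ1 minus YKL-5-124, the difference was −1.80 for TUBA1A, −0.56 for TUBA1C, −0.62 for TUBB, −1.35 for TUBB2B, −1.62 for TUBB4B and −2.30 for TUBB6. It was 1.30 for TUBA1B and 1.45 for TUBB2A. By the same test 26.6% of all genes tested were called higher and 31% lower, so being called was common. For TUBB2B the changes pointed in opposite directions, −0.92 with THZ1, called, and 0.43 with YKL-5-124, a call lost in 5 of the 6 runs that left out 1 library and without the filter. For TUBB4B they were −1.41, called, and 0.21, not called, and for TUBA1A −0.17, not called, and 1.63, called. Against ribosomal protein mRNAs as the reference, the TUBA1B and TUBB2A differences were negative (−1.01 and −0.91), and under library totals neither was called (0.27 and 0.41). The TUBA1C difference was not called under RLE scaling (−0.33), upper-quartile scaling (−0.25), DESeq2 (−0.33) or without YKL-5-124 24 h replicate 2 (−0.49). TUBG1, not called with TMM, was called under RLE (0.45), upper-quartile scaling (0.53) and DESeq2 (0.44).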

How the results depend on the processing

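The counts of called tubulin genes depended on the scaling. With library totals, 2 members were higher after 24 h of THZ1, 4 higher after 24 h of YKL-5-124, 0 higher for THZ1 against YKL-5-124 at 4 h and 1 at 24 h, 1 higher for THZ1 from 4 h to 24 h, 0 lower for YKL-5-124 from 4 h to 24 h, and 0 higher in the interaction. The matching shares of all genes tested were, in this order, 15.7%, 14.5%, 1.38%, 13.8%, 15.8%, 7.22% and 10.8%. With ribosomal protein mRNAs as the reference, higher and lower counts were 0 and 4 after 4 h of THZ1, 0 and 9 after 24 h, 8 and 0 after 24 h of YKL-5-124, 0 and 3 between compounds at 4 h, 0 and 10 at 24 h, 1 and 8 for THZ1 over time, 9 and 0 for YKL-5-124 over time, and 0 and 10 in the interaction. In the same order, all genes tested gave 0.201% and 38.1%, 3.97% and 81.1%, 35.4% and 1.38%, and 0.18% and 30.8%. The rest gave 1.92% and 89.5%, 5.23% and 71.8%, 46.9% and 0.906%, and 1.36% and 78.6%, so most of all genes moved too. RLE scaling and DESeq2 each gave 3 and 0 after 4 h of THZ1 and 0 lower between compounds at 4 h, and upper-quartile scaling gave 3 higher after 4 h of THZ1. All genes tested gave 21.5% and 23.2%, then 19.9%, with RLE, 23.5% and 24.1%, then 21.4%, with DESeq2, and 18.5% with upper-quartile scaling. Without a filter there were 0 lower after 4 h of THZ1, 2 higher at 24 h, and 1 and 0 between compounds at 4 h, and with only the groups compared 0 higher between compounds at 4 h. The shares over all genes were 12.1%, 18.4%, 5.22% and 10.7% without a filter, and 7.55% with only the groups compared. Counted without division by length, 2 genes had shares outside the DMSO range after 4 h of YKL-5-124. All genes called after 4 h of THZ1 were 2439 higher and 3630 lower with TMM, 583 and 4631 with library totals, 3110 and 3356 with RLE, and 29 and 5512 against ribosomal protein mRNAs. After 24 h of THZ1 RLE gave 5457 and 5471, and upper-quartile scaling 5615 and 5286.

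Leaving out 1 library at a time gave 1 to 3 higher and 0 to 1 lower members after 4 h of THZ1, 2 to 4 higher at 24 h (2 without DMSO replicate 2), 0 to 2 higher and 0 to 1 lower between compounds at 4 h, 0 to 1 lower for YKL-5-124 over time (0 without YKL-5-124 4 h replicate 3), and 1 to 3 shares outside the DMSO range after 4 h of YKL-5-124 (3 without DMSO replicate 2). In these runs 30 calls of members were lost and 3 gained. The other 567 values kept their side of the threshold, of which 30 changed sign. Of other named genes 33 calls were lost and 243 kept. With other lengths or pools, 81 shares moved by more than their SD and 54 did not.

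Signs reversed under library totals for TUBG1 after 24 h of THZ1 (−0.88), between compounds at 24 h (−0.86), over time with THZ1 (−0.87) and in the interaction (−0.82), and for TUBA1A (−0.94), TUBB3 (−0.062) and TUBG2 (−0.53) after 24 h of THZ1. TUBB between compounds at 24 h was 0.0165 with RLE and with DESeq2 and 0.00062 with upper-quartile scaling. Against ribosomal protein mRNAs, reversed values were CLASP2 −0.042, TUBA1C −0.35 and TUBB6 −0.40 after 4 h of THZ1. With THZ1 for 24 h they were TUBG2 −1.62, AGBL5 −0.24, STMN1 −0.25, TUBA1B −0.45, TUBG1 −1.94, TUBA1A −1.97 and TUBB3 −1.10. After 24 h of YKL-5-124 they were TUBGCP3 0.062, FIGNL1 0.092, TUBA1C 0.49, TUBB6 0.34 and TUBB 0.12. Between compounds they were TUBA1B −0.070, TUBA1C −0.28, TUBB6 −0.32 and TUBB −0.10 at 4 h, and TUBA1B −1.08, TUBG1 −2.35, TUBB2A −1.36 and TUBB3 −2.33 at 24 h. Over time they were TUBA1B −0.53, TUBG1 −1.69 and TUBB3 −0.036 with THZ1, and TUBA1B 0.49, TUBG1 0.46, TUBA1C 0.56, TUBB6 0.42 and TUBB 0.30 with YKL-5-124. In the interaction they were TUBA1B −1.01, TUBG1 −2.14, TUBB2A −0.91 and TUBB3 −1.49. The median of all genes tested moved under these scalings, as given above, and the cause of the other changes was not tested.

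A fit with a replicate block changed no count of called tubulin genes, and with it TUBB2A after 24 h of THZ1 was 2.35 and TUBA1A after 24 h of YKL-5-124 was 1.71. The numbers did not meet the rule for pairing, every same-number correlation above 0.1: these ran from −0.67 to 0.73 with a median of 0.36, against −0.27 for different numbers, 21 of 30 were above 0.1, against 22 of 60, and 8 of 15 libraries correlated best with their own number. Over all genes the block gave 3078 higher and 3933 lower after 4 h of THZ1. Low counts limit TUBB3, with 6 to 25 reads per library, and the part of its overlap with AC092143.1 in this was not tested.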

Other observations

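Across the 15 libraries the members formed opposed profiles, given here as descriptions of libraries that share 5 group means. Pearson's r of log2(CPM + 1) was 0.94 between TUBB4B and TUBB6 and 0.90 between TUBB2B and TUBB4B. It was −0.95 between TUBA1B and TUBB4B and −0.92 between TUBB2A and TUBB6. The near-identical pair TUBB2A and TUBB2B had r = −0.65.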
